A study of Mus musculus with 30 samples.

Results

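The genes described here are *Cebpa*, *Cebpb*, *Cebpd* and *Cebpg*, which encode transcription factors of the CCAAT/enhancer-binding protein (C/EBP) family, and *Trib1*, which encodes a pseudokinase that works on C/EBP proteins. They were chosen by symbol, and each of the 5 matched 1 of the 55450 rows of the gene count table. All 5 were measured in every liver and passed the low-count filter in all 3 experiments. Liver mRNA of male mice on the HFCFD, a diet rich in fat, cholesterol and fructose, was sequenced, with 5 livers in each of 6 groups. In HFCFD2W, fed for 2 weeks, the Cre+ mice were *Cebpa* ΔHep, in which an *Albumin*-driven Cre removes the floxed *Cebpa* gene from hepatocytes from early life on. In HFCFD8W+T10D and HFCFD12W+T10W the Cre+ mice were *Cebpa* ΔHep,ERT2, in which the *Albumin*-driven Cre acts only after tamoxifen. HFCFD8W+T10D livers had 8 weeks of diet with tamoxifen for 10 days, and HFCFD12W+T10W livers had 12 weeks of diet followed by tamoxifen with the diet for 10 weeks, 22 weeks of feeding in all. The Cre- mice of each experiment were *Cebpa* fl/fl controls on the same diet and, in the inducible experiments, the same tamoxifen, so the tamoxifen is shared by both genotypes there. The submitters describe the experiments as different batches of mice, so Cre line, diet time, tamoxifen and batch cannot be told apart between experiments, while each genotype comparison lies within 1 of them. The ages of the mice are not given in the sources used here.

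C/EBP proteins carry a basic leucine zipper, by which they pair with each other or with related proteins and bind DNA. C/EBPα is abundant in resting hepatocytes and maintains genes of gluconeogenesis, urea synthesis and plasma protein secretion, whereas C/EBPβ and C/EBPδ are known for induction by cytokines, glucocorticoids and cyclic AMP in the acute-phase response. C/EBPγ lacks a strong activation domain and acts mainly as a partner of other C/EBP proteins and of ATF4. TRIB1 brings the ubiquitin ligase COP1 to C/EBPα, which is then degraded, so transcript and protein levels can differ. Protein was not measured in these data.

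*Cebpg* and *Cebpa* are neighbours on mouse chromosome 7, with 62719 bases between the end of one gene and the start of the other in GRCm38. The 250 bases before the RefSeq start are given for the 3 family members whose transcripts differed between genotypes in HFCFD2W. They are from RefSeq (GRCm38.p6), 5′ to 3′ on the strand of the gene, and binding to them was not tested. The window of *Cebpa* is chr7:35119043-35119292 on the plus strand, that of *Cebpb* is chr2:167688665-167688914 on the plus strand, and that of *Cebpg* is chr7:35056567-35056816 on the minus strand. Capitals mark a match to any of 3 motifs searched on both strands: TTGCNNAA (a C/EBP dimer site), TGATGNAA (a C/EBP-ATF composite site) and CCAAT (the CCAAT box, not counted here as a C/EBP site).
Cebpa: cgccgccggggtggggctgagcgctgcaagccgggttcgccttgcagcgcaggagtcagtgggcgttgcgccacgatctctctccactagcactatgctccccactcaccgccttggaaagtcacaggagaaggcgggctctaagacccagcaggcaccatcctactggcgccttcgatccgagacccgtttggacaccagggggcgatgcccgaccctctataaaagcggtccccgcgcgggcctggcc
Cebpb: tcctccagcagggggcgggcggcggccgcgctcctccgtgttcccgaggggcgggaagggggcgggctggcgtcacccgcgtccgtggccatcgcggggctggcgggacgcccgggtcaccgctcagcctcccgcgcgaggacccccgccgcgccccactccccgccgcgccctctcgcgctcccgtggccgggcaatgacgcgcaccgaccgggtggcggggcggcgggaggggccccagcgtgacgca
Cebpg: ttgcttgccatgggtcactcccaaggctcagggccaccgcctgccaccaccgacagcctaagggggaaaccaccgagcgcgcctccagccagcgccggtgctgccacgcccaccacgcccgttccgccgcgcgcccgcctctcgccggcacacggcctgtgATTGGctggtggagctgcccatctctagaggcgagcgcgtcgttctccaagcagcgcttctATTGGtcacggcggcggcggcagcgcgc
In these windows the *Cebpg* promoter held 2 matches, both to CCAAT on the opposite strand, which begin 89 and 28 bases before the start and overlap no other motif. Neither C/EBP motif matched in the *Cebpg* window. The *Cebpa* and *Cebpb* windows held no match to any of the 3 motifs, and sites that differ from them were not searched. Of 32851 promoter windows of the same length, 33.8% held CCAAT, 9.56% held TTGCNNAA and 3.45% held TGATGNAA, so a CCAAT match is common. The windows held 66.4% (*Cebpa*), 81.6% (*Cebpb*) and 70.8% (*Cebpg*) G or C, against a median of 52.4% over all windows. In the annotation (GENCODE M21) the *Cebpa* window lies in the antisense gene *Gm45091*, and the *Cebpb* window lies in *Tmem189* on the other strand. The RefSeq table used here held no window of *Cebpd* or *Trib1*.

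Library depth ranged from 7996123 to 10257347 counts. Levels are given as CPM, counts relative to library sizes that were scaled over all 30 livers with TMM, edgeR's trimmed-mean method. Values per liver are listed in the order of replicate number. These numbers run from 1 to 5 in each group, except from 2 to 6 in the Cre+ livers of HFCFD2W. A gene passed the test at a Benjamini-Hochberg adjusted p under 0.05 over all genes in the quasi-likelihood test of edgeR, fitted within an experiment. The scaling matters here: TMM factors were 1.29 to 1.38 in the Cre+ livers of HFCFD12W+T10W and 0.961 to 1.03 in their Cre- controls. Without a scaling factor, a choice made after seeing the data, the median log2 fold change of all genes moved from 0.01 to 0.38 in that experiment and from 0.01 to 0.19 in HFCFD8W+T10D. Among genes that passed, the share that were higher then went from 53.5% to 88.0% in HFCFD12W+T10W. In HFCFD8W+T10D it went from 60.0% to 84.1%, and from 51.5% to 57.7% in HFCFD2W.

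*Cebpa* is the gene removed, so its being lower was set by the design and is no result in any count of this paragraph. In HFCFD2W, 2 of the 5 genes were higher in Cre+ livers (*Cebpb* and *Cebpg*) and 2 were lower (*Cebpa* and *Trib1*), where 8.6% of 11068 genes tested passed as higher and 8.09% as lower. In HFCFD8W+T10D, 2 were lower (*Cebpa* and *Trib1*) and 0 higher, against 6.85% lower and 10.3% higher of 11990 genes. The count of 0 higher genes was also 0 at an unadjusted p under 0.05 and 0 with DESeq2. In HFCFD12W+T10W all 5 passed, *Cebpd* and *Cebpg* as higher and *Cebpa*, *Cebpb* and *Trib1* as lower, in an experiment where 27.4% of 12463 genes passed as higher and 23.8% as lower. With a fold change over 2 as well, the genes left were *Cebpa* and *Cebpb* in HFCFD2W, *Cebpa* in HFCFD8W+T10D, and *Cebpa* and *Trib1* in HFCFD12W+T10W, and the share of all genes that reached that size was 1.69% as higher and 1.38% as lower for HFCFD2W, 4.09% and 2.01% for the second experiment, and 14.3% and 3.47% for the last. The Cre+ and Cre- livers did not overlap for 4 genes of the first experiment, 2 of the second and 3 of the last. Over all genes, the shares without overlap were 6.42% higher and 6.13% lower, 6.36% and 5.28%, and 20.9% and 16.8% in the same order.

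**Figure D1:**
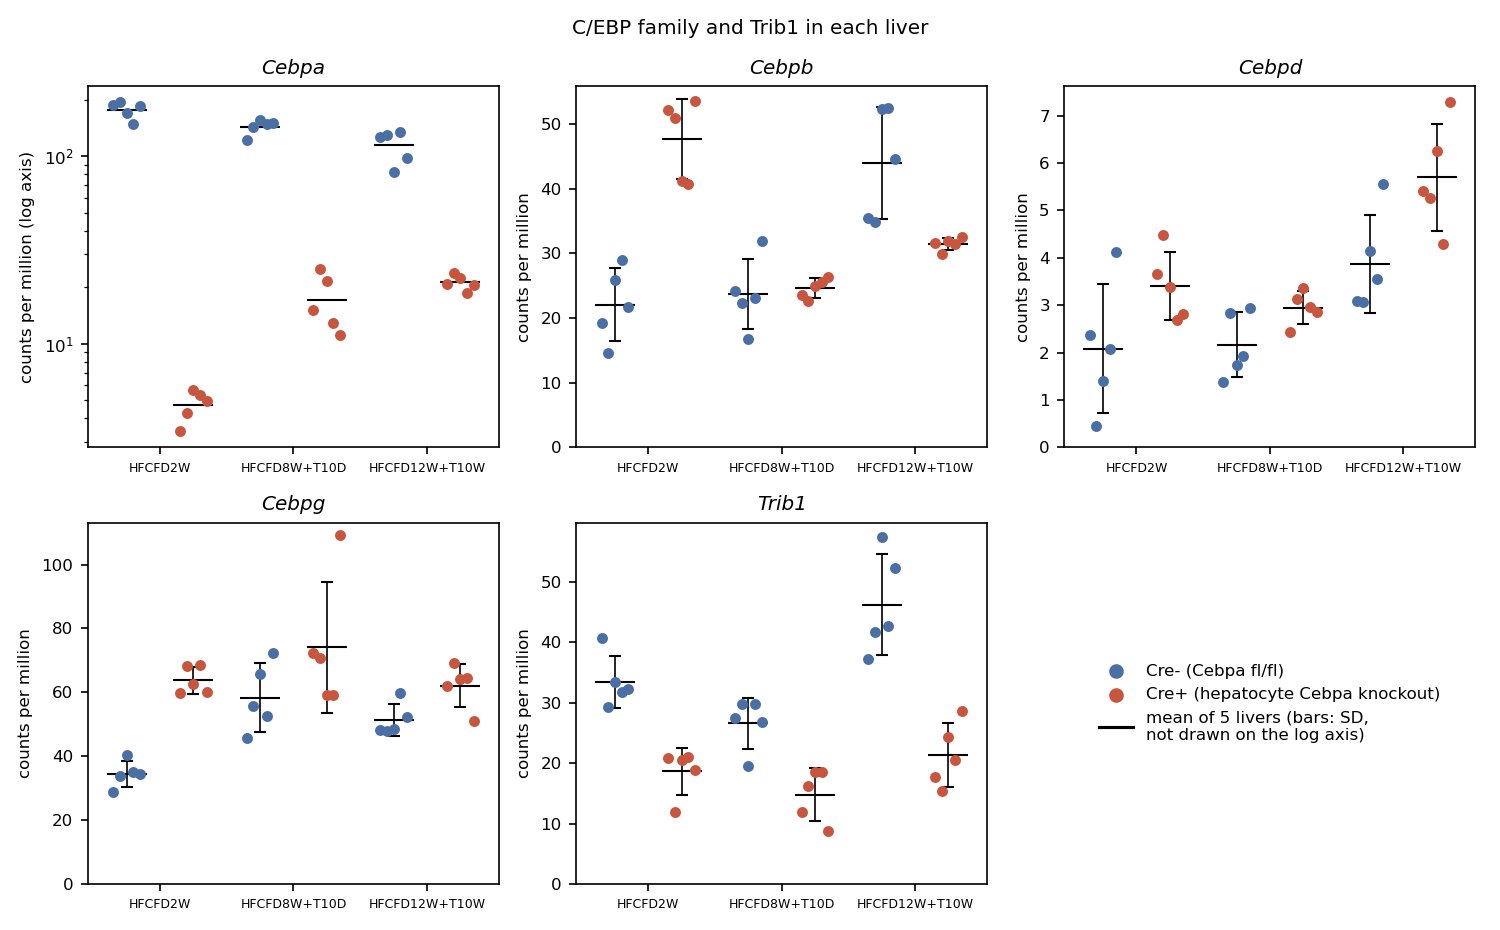
CPM of the 5 genes (y axis, a log axis for *Cebpa*) in every liver of the 6 groups (x axis), with blue points for Cre-, red points for Cre+ and a line for the mean of 5 livers. Bars show the SD and are not drawn for *Cebpa*. *Cebpa* and *Trib1* lie lower in all 5 Cre+ livers of every experiment, whereas *Cebpb* is higher in Cre+ livers of HFCFD2W (40.8 to 53.5 CPM) and lower in those of HFCFD12W+T10W (29.9 to 32.5 CPM). The lower level of *Cebpb* in HFCFD12W+T10W depended on the scaling.

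*Cebpa* (ENSMUSG00000034957.10, chr7:35119293-35121928, plus strand, 1 exon or 2 by transcript) checks the labels, since it is the gene removed. In HFCFD2W its level was 187, 193, 171, 149 and 186 CPM in the Cre- livers and 3.43, 4.26, 5.68, 5.37 and 4.97 CPM in the Cre+ livers. In HFCFD8W+T10D it was 121, 142, 156, 149 and 150 CPM in Cre- and 15.2, 25.1, 21.6, 12.9 and 11.1 CPM in Cre+ livers. In HFCFD12W+T10W it was 126, 130, 82.5, 135 and 97.7 CPM in Cre- and 20.7, 23.8, 22.5, 18.7 and 20.6 CPM in Cre+ livers. No Cre+ liver reached the lowest Cre- liver of its experiment. Among Cre+ livers *Cebpa* was higher than in HFCFD2W by 1.87 ± 0.19 (SE) log2 units in HFCFD8W+T10D (edgeR fit of 30 livers, adjusted p = 7.82e-09). In Cre+ livers of HFCFD12W+T10W it was higher by 2.17 ± 0.19 (adjusted p = 3.17e-10). In these contrasts 24.5% and 29.3% of all genes passed as higher. In bulk liver, residual transcript from cells that are not hepatocytes and from hepatocytes that kept the gene cannot be told apart, nor can fewer cells of a type and less RNA per cell. The genotype effect was weaker than that of HFCFD2W by 2.17 ± 0.25 (SE) log2 units in HFCFD8W+T10D (interaction term of the edgeR fit of 30 livers, adjusted p = 9.31e-07) and by 2.80 ± 0.24 after the longest feeding (adjusted p = 2.73e-08). Between the inducible experiments the effects differed by 0.63 ± 0.22, which missed the threshold (adjusted p = 0.0658) but passed under upper quartile scaling (0.71), DESeq2 (0.65) and without scaling (0.84). It also passed without Cre+ replicate 2 (0.83) or 3 (0.76) of HFCFD8W+T10D or Cre- replicate 4 of HFCFD12W+T10W (0.73). Among the Cre- livers *Cebpa* differed by -0.63 ± 0.15 log2 units between the longest and the shortest feeding (adjusted p = 0.00162), in a contrast in which 19.8% of all genes passed as higher and 19.4% as lower, and without scaling the difference was -0.40 and missed the threshold (adjusted p = 0.0701). The Cre- livers of HFCFD8W+T10D, at 144 ± 13.4 CPM (SD, n = 5), differed from neither of the others by the test.

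*Cebpb* (ENSMUSG00000056501.3, chr2:167688915-167690418, plus strand, 1 exon) encodes the factor induced in the acute-phase response. Its genotype effect differed between experiments, and it passed in opposite directions only with a scaling factor. In HFCFD2W its level was 19.3, 14.5, 25.9, 28.98 and 21.7 CPM in Cre- and 52.2, 50.8, 41.2, 40.8 and 53.5 CPM in Cre+ livers. All 5 Cre+ livers lay above all Cre- livers, with a log2 fold change of 1.11 ± 0.15 (SE, adjusted p = 0.000394). In HFCFD8W+T10D its level was 24.1, 22.4, 16.8, 23.2 and 31.9 CPM in Cre- and 23.6, 22.6, 24.9, 25.5 and 26.4 CPM in Cre+ livers. The Cre+ livers lay inside the range of the Cre- livers, and the log2 fold change was 0.067 with a 95% confidence interval from -0.24 to 0.37 (adjusted p = 0.794). In HFCFD12W+T10W its level was 35.4, 34.9, 52.3, 52.5 and 44.5 CPM in Cre- and 31.6, 29.9, 31.8, 31.4 and 32.5 CPM in Cre+ livers. All Cre+ livers lay below the lowest Cre- liver, and *Cebpb* was lower by a log2 fold change of -0.44 ± 0.12 (adjusted p = 0.00751). This call depended on the scaling: without a scaling factor the log2 fold change was -0.062 (adjusted p = 0.633), and in TPM, which scale each library's transcripts to a fixed total per length and carry no TMM factor, the groups overlapped at 40.8 ± 7.15 in Cre- and 39.0 ± 1.37 in Cre+ livers (SD, n = 5).

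The difference between these effects did not depend on the scaling in the same way. Against HFCFD2W, the *Cebpb* genotype effect differed by -1.05 ± 0.21 log2 units for HFCFD8W+T10D (adjusted p = 0.00145) and by -1.59 ± 0.21 for HFCFD12W+T10W (adjusted p = 3.34e-06). Both passed without scaling, at -0.88 and -1.19. Of 12964 genes, 4.45% passed as higher and 6.79% as lower in the first of these contrasts, and 13.4% and 17.3% in the second. Between the inducible experiments the *Cebpb* effects differed by -0.53 ± 0.21 (adjusted p = 0.0992), where 4.97% and 5.49% of genes passed. The order of the 6 groups by mean CPM of *Cebpb* began with Cre+ HFCFD2W (47.7 ± 6.19 CPM, SD, n = 5), followed by Cre- HFCFD12W+T10W (43.9 ± 8.62), Cre+ HFCFD12W+T10W (31.5 ± 0.959), Cre+ HFCFD8W+T10D (24.6 ± 1.51), Cre- HFCFD8W+T10D (23.7 ± 5.40) and Cre- HFCFD2W (22.1 ± 5.63). Among Cre- livers *Cebpb* was higher in HFCFD12W+T10W than in HFCFD8W+T10D (log2 difference 0.89 ± 0.15, adjusted p = 0.000188) and than in HFCFD2W (0.99 ± 0.15, adjusted p = 1.07e-05). In the first of these contrasts 6.31% of genes passed as higher and 5.12% as lower, and in the second 19.8% and 19.4%. Among Cre+ livers it was lower in HFCFD8W+T10D than in HFCFD2W (-0.96 ± 0.15, adjusted p = 4.12e-06), where 24.5% of genes passed as higher and 25.3% as lower. It was also lower in Cre+ livers of HFCFD12W+T10W than of HFCFD2W (-0.60 ± 0.14, adjusted p = 0.000709), where 29.3% and 30.7% did, but without scaling that difference was 0.028. Neighbours 3 and 4 (Cre+ of the inducible experiments, 0.36 ± 0.15, adjusted p = 0.0699) did not differ by the test, though they did under upper quartile scaling (0.40) and without scaling (0.62), in a contrast where 13% of genes passed as higher and 14.7% as lower. *Cebpb* overlaps *Tmem189* on the other strand, which had 91 to 274 counts per library, against 98 to 457 for *Cebpb*. Because the strand setting of the counting is not given in the sources used here, reads shared by both genes cannot be told apart.

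*Cebpg* (ENSMUSG00000056216.9, chr7:35046422-35056573, minus strand, 1 exon or 2 by transcript) encodes the partner without a strong activation domain. In HFCFD2W its level was 28.8, 33.8, 40.3, 34.9 and 34.3 CPM in Cre- and 59.8, 68.1, 62.6, 68.5 and 60.2 CPM in Cre+ livers. The genotypes did not overlap, and the log2 fold change was 0.89 ± 0.09 (SE, adjusted p = 3.05e-05). In HFCFD8W+T10D its level was 45.5, 55.6, 65.7, 52.5 and 72.4 CPM in Cre- and 72.2, 70.8, 59.3, 59.2 and 109 CPM in Cre+ livers. Only Cre+ replicate 5 lay above all Cre- livers, and the log2 fold change of 0.36 (95% confidence interval -0.02 to 0.74) did not pass (adjusted p = 0.183). Without that liver the log2 fold change was 0.16 (adjusted p = 0.428). In HFCFD12W+T10W its level was 48.2, 47.9, 48.6, 59.8 and 52.2 CPM in Cre- and 61.8, 69.1, 64.1, 64.4 and 51.1 CPM in Cre+ livers. Here 4 of 5 Cre+ livers lay above all Cre- livers, and *Cebpg* was higher by 0.32 ± 0.09 log2 units (adjusted p = 0.0119). It missed the threshold in the fit of all 30 livers (0.27, adjusted p = 0.087), and without scaling it was 0.69 (adjusted p = 2.12e-05).

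The genotype effect on *Cebpg* differed by -0.61 ± 0.19 log2 units between HFCFD12W+T10W and HFCFD2W (adjusted p = 0.015), which missed the threshold under upper quartile scaling (-0.49, adjusted p = 0.0573) and without scaling (-0.22, adjusted p = 0.469). The difference between HFCFD8W+T10D and HFCFD2W was -0.54 ± 0.19 (adjusted p = 0.0617). It passed without Cre+ replicate 5 of HFCFD8W+T10D (-0.73), without Cre- replicate 1 of HFCFD8W+T10D (-0.62) and without Cre- replicate 3 of HFCFD2W (-0.61). Among Cre- livers *Cebpg* was lowest in HFCFD2W (34.4 ± 4.10 CPM, SD, n = 5) and higher in HFCFD8W+T10D (58.4 ± 10.7 CPM, log2 difference 0.76 ± 0.14, adjusted p = 6.04e-05, where 22.2% of genes passed as higher and 21.5% as lower) and HFCFD12W+T10W (51.4 ± 5.03 CPM, 0.57 ± 0.14, adjusted p = 0.00156). The 3 Cre+ groups, at 63.8 ± 4.23, 74.1 ± 20.5 and 62.1 ± 6.71 CPM in the order of the experiments, did not differ by the test. Under upper quartile scaling, and without scaling, the Cre+ livers of HFCFD8W+T10D were higher than those of HFCFD2W (0.34 and 0.61), and without scaling those of HFCFD12W+T10W were higher too (0.59).

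*Cebpd* (ENSMUSG00000071637.5, chr16:15887286-15891031, plus strand, 1 exon or 2 by transcript) is the other acute-phase factor, and it was the least abundant member, with 3 to 90 counts per library. In HFCFD2W its level was 2.37, 0.445, 1.40, 2.07 and 4.12 CPM in Cre- and 3.67, 4.49, 3.38, 2.68 and 2.82 CPM in Cre+ livers. In HFCFD8W+T10D it was 1.39, 2.85, 1.74, 1.93 and 2.95 CPM in Cre- and 2.44, 3.13, 3.36, 2.97 and 2.85 CPM in Cre+ livers. The genotypes overlapped in both, and the log2 fold changes of 0.72 (95% confidence interval -0.07 to 1.51, adjusted p = 0.2) and 0.45 (-0.05 to 0.95, adjusted p = 0.212) did not pass. The former was 0.48 without Cre- replicate 2, the liver with 0.445 CPM, and 1.12 without Cre- replicate 5, the liver with 4.12 CPM (adjusted p = 0.33 and 0.0512). In HFCFD12W+T10W its level was 3.09, 3.06, 4.14, 3.56 and 5.55 CPM in Cre- and 5.41, 5.27, 6.25, 4.29 and 7.28 CPM in Cre+ livers. It was higher in Cre+ livers by 0.59 ± 0.20 log2 units (adjusted p = 0.0241), although the groups overlapped and 2 of 5 Cre+ livers lay above all Cre- livers. It missed the threshold in the fit of all livers (0.55, adjusted p = 0.0731) and without any 1 of Cre- replicates 1, 2 and 4 or Cre+ replicates 3 and 5 (0.49 to 0.55), and without scaling it was 0.96 (adjusted p = 0.00141). The genotype effects on *Cebpd* did not differ between experiments by the interaction test, with intervals as wide as -1.14 to 0.57 log2 units for HFCFD8W+T10D against HFCFD2W. That difference ranged from -0.68 to -0.040 when 1 liver was left out. *Cebpd* was higher in HFCFD12W+T10W than in HFCFD2W in both genotypes, by 0.91 ± 0.29 log2 units in Cre- livers (adjusted p = 0.0158) and 0.74 ± 0.26 in Cre+ livers (adjusted p = 0.0166). The Cre- difference missed the threshold without Cre- replicate 5 of HFCFD12W+T10W (0.75, adjusted p = 0.0606). Against HFCFD8W+T10D, the Cre+ livers of HFCFD12W+T10W were higher by 0.95 ± 0.26 (adjusted p = 0.00652). *Spidr*, which overlaps *Cebpd* on the other strand, had 17 to 78 counts per library.

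*Trib1* (ENSMUSG00000032501.9, chr15:59648350-59657099, plus strand, 2 or 3 exons by transcript) was the only member besides *Cebpa* that passed in the same direction in all 3 experiments, and it overlaps no annotated gene. The shares of all genes that passed as lower were 8.09%, 6.85% and 23.8% in the order of the experiments. The share that did so in all 3 is not given here, so how unusual such a gene is was not tested. In HFCFD2W the level of *Trib1* was 40.7, 29.4, 33.5, 31.7 and 32.2 CPM in Cre- and 20.8, 11.9, 20.5, 21.1 and 18.8 CPM in Cre+ livers. In HFCFD8W+T10D it was 27.5, 29.8, 19.5, 29.8 and 26.8 CPM in Cre- and 11.9, 16.2, 18.5, 18.6 and 8.74 CPM in Cre+ livers. In HFCFD12W+T10W it was 37.3, 41.7, 57.4, 42.7 and 52.3 CPM in Cre- and 17.7, 15.4, 24.4, 20.5 and 28.6 CPM in Cre+ livers. In each experiment every Cre+ liver lay below every Cre- liver, most narrowly in HFCFD8W+T10D, where the highest Cre+ liver had 18.6 CPM and the lowest Cre- liver 19.5 CPM. *Trib1* was lower in Cre+ livers by a log2 fold change of -0.85 ± 0.14 (SE, adjusted p = 0.00167), -0.84 ± 0.20 (adjusted p = 0.0121) and -1.07 ± 0.17 (adjusted p = 0.000165) in the order of the experiments. In TPM the groups overlapped in the inducible experiments, at 0.644 and 0.612 times the Cre- mean. Without scaling the log2 fold changes were -0.83, -0.67 and -0.70, and all 3 passed. The test found no difference between the genotype effects, with intervals of -0.53 to 0.52, -0.79 to 0.27 and -0.79 to 0.26 log2 units for HFCFD8W+T10D against HFCFD2W, HFCFD12W+T10W against HFCFD8W+T10D and HFCFD12W+T10W against HFCFD2W.

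The level of *Trib1* also differed between experiments within a genotype. Cre- livers of HFCFD12W+T10W had 46.3 ± 8.29 CPM (SD, n = 5), more than those of HFCFD8W+T10D (26.6 ± 4.23 CPM, log2 difference 0.80 ± 0.18, adjusted p = 0.00367) and of HFCFD2W (33.5 ± 4.27 CPM, 0.47 ± 0.18, adjusted p = 0.038). The last of these missed the threshold without Cre- replicate 3 or 5 of HFCFD12W+T10W or without Cre- replicate 2, 3, 4 or 5 of HFCFD2W (0.40 to 0.47). The Cre+ livers of HFCFD12W+T10W, at 21.3 ± 5.29 CPM, were above those of HFCFD8W+T10D, at 14.8 ± 4.35 CPM (0.54 ± 0.19, adjusted p = 0.0311), a difference that missed the threshold without Cre+ replicate 1 or 5 of HFCFD8W+T10D or Cre+ replicate 3 or 5 of HFCFD12W+T10W (0.39 to 0.50). Cre+ livers of HFCFD2W, at 18.6 ± 3.87 CPM, differed from neither by the test, and without scaling those of HFCFD12W+T10W were higher than they were (0.83, adjusted p = 0.000225).

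The exact permutation test of log2 CPM, two-sided over all arrangements of the 10 livers of an experiment, gave p = 0.00794 in 9 of the 15 comparisons of a gene in an experiment, the smallest value that it can give. These were the 9 in which the genotypes did not overlap. They include *Cebpa*, the gene removed, in every experiment, which was set by the design. The permutation p was 0.0397 for *Cebpd* and 0.0238 for *Cebpg* in HFCFD12W+T10W. Of the rest, it was 0.603 for *Cebpb* and 0.143 for *Cebpg* in HFCFD8W+T10D, and 0.0714 and 0.0635 for *Cebpd* in HFCFD2W and HFCFD8W+T10D.

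**Figure D2:**
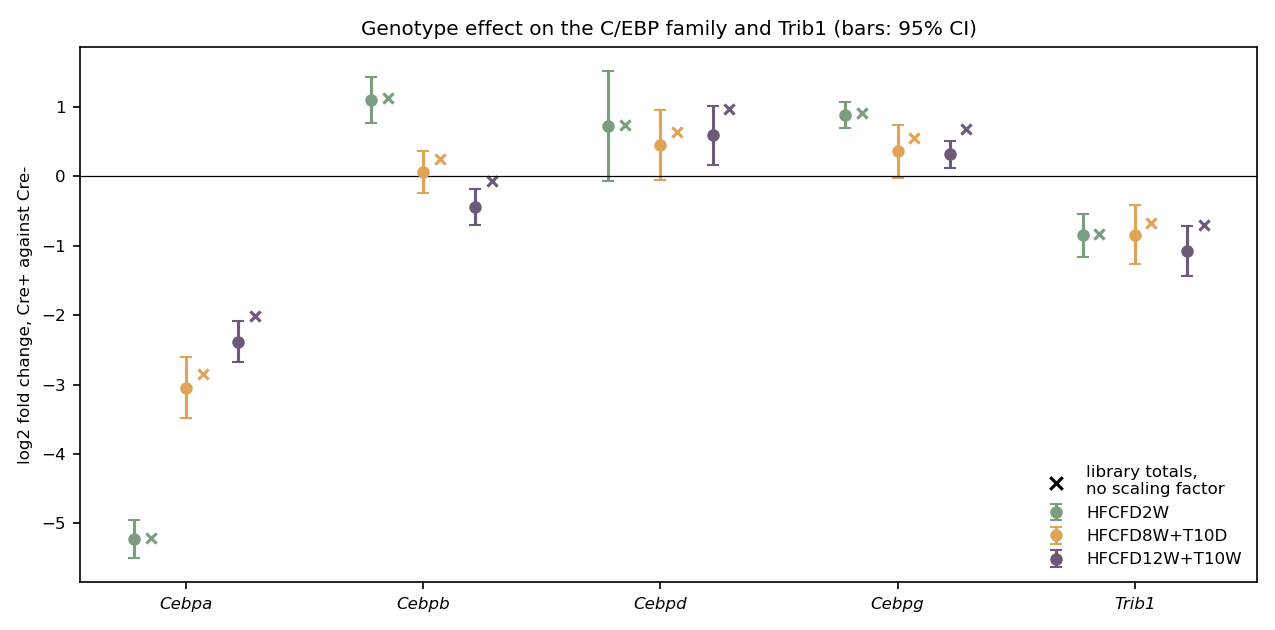
Log2 fold change of Cre+ against Cre- (y axis) for the 5 genes (x axis) in the 3 experiments, with circles for the TMM-scaled fit, bars for the 95% confidence interval and crosses for library totals with no scaling factor. *Trib1* lies between -0.84 and -1.07 in all 3 experiments, and the *Cebpb* circle moves from 1.11 to -0.44 while its cross in HFCFD12W+T10W lies at -0.062.

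Because TPM divides by transcript length, it allows the family members to be set against each other within a liver. In Cre- livers *Cebpa* made up 77.2% ± 5.24 (SD, n = 5) of the summed TPM of *Cebpa*, *Cebpb*, *Cebpd* and *Cebpg* in HFCFD2W, then 68.7% ± 3.56 and 54.4% ± 7.97 in the other experiments in order. In Cre+ livers its share was 4.13% ± 0.820, 18.5% ± 6.12 and 20.5% ± 1.05 in the same order. *Cebpb* was the most abundant member in the mean of each Cre+ group, with 66.7% ± 5.06, 41.8% ± 5.05 and 47.6% ± 2.80 of the summed TPM. *Cebpg* followed with 27.2% ± 4.19, 37.8% ± 7.48 and 28.6% ± 2.37, and *Cebpd* made up at most 4.13% in any liver. The ratio of *Cebpa* to *Cebpb* TPM was 5.43 ± 1.97 in Cre- and 0.0629 ± 0.0166 in Cre+ livers of HFCFD2W. It was 4.02 ± 1.13 and 0.450 ± 0.176 in HFCFD8W+T10D and, at the last time, 1.73 ± 0.578 and 0.434 ± 0.0468. The summed TPM was 103 ± 9.27 in Cre- and 55.1 ± 4.21 in Cre+ livers of HFCFD2W. It was 112 ± 19.1 and 59.9 ± 16.6 in HFCFD8W+T10D and, at the last time, 124 ± 12.6 and 82.1 ± 4.01. The sums did not overlap between genotypes in any experiment, and since *Cebpa*, the gene removed, was the largest part of each Cre- sum, these shares are a description with no test.

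**Figure D3:**
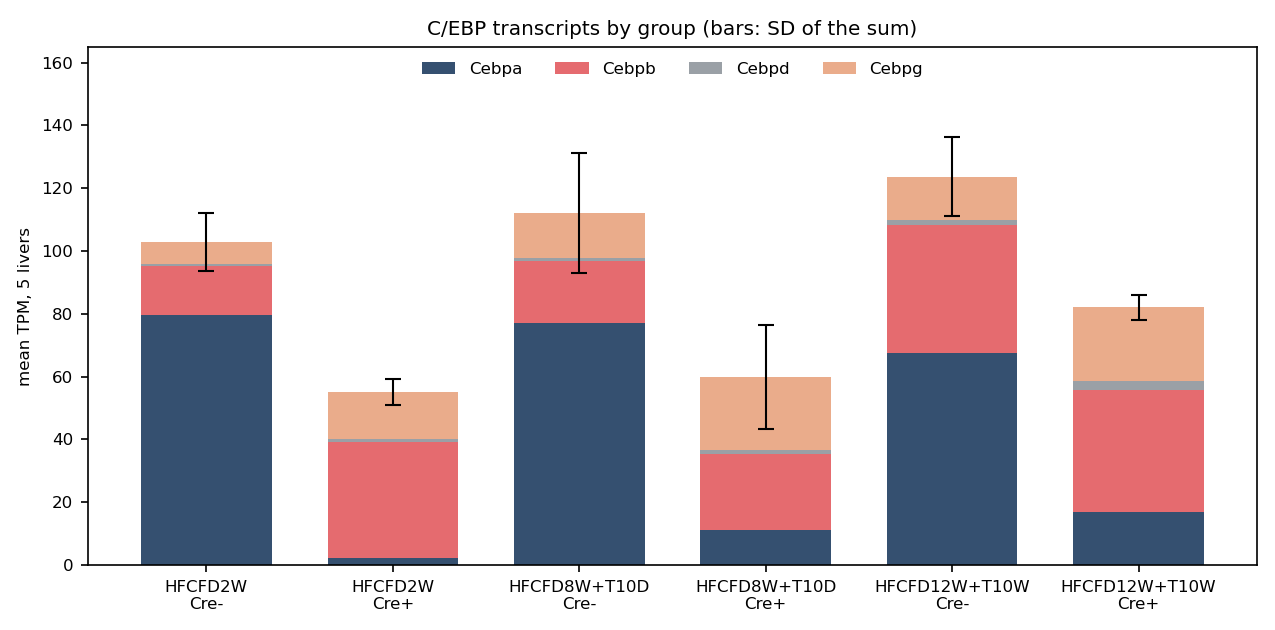
Mean TPM of the 4 C/EBP genes (y axis, stacked) in the 6 groups (x axis), with bars for the SD of the summed TPM over 5 livers. The *Cebpa* part shrinks from 79.5 to 2.25 TPM between genotypes in HFCFD2W, while the *Cebpb* part in Cre+ livers is 36.9 TPM there and 24.4 and 39.0 TPM in the later experiments.

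Genes that act with the family were examined as 5 lists, each given by how many passed and by its median log2 fold change beside that of all genes tested, which was 0.01 in each experiment. Of all genes tested, 8.6% passed as higher and 8.09% as lower in HFCFD2W, and 10.3% and 6.85% in HFCFD8W+T10D. In HFCFD12W+T10W these shares were 27.4% and 23.8%, so a few calls in a short list are common there. Whether a list held more calls than these shares was not tested. Among the 9 genes of the TRIB1-COP1 pathway, *Cop1*, the ligase that TRIB1 recruits, was lower in all 3 experiments by -0.24, -0.34 and -0.38 (adjusted p = 0.0457, 0.0142 and 0.00213). Without scaling *Cop1* passed in none of them, at -0.22, -0.16 and -0.0058 (adjusted p = 0.0826, 0.381 and 0.957), and in HFCFD2W it also missed the threshold with DESeq2 (-0.24, adjusted p = 0.0563). In HFCFD2W *Trib3*, a relative of *Trib1*, was lower (-1.26, adjusted p = 0.00768) and *Dda1*, a part of the CUL4 ligase, was higher (0.44, adjusted p = 0.0257). In HFCFD12W+T10W *Trib2* was higher (0.67, adjusted p = 0.00263) and the ligase scaffold *Cul4a* lower (-0.40, adjusted p = 0.000126), the latter at -0.028 without scaling. The medians of this list were -0.01, -0.02 and -0.13 in the order of the experiments.

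Among 13 basic leucine zipper partners and relatives, 9 were tested in HFCFD2W and 11 in each of the other experiments. In HFCFD2W 2 were higher, *Jun* (1.71, adjusted p = 0.000219) and *Atf4* (0.46, adjusted p = 0.0319), and 2 were lower, *Dbp* (-0.96, adjusted p = 0.0119) and *Tef* (-0.35, adjusted p = 0.016), both clock-controlled. Mean *Dbp* was 98.8, 4.04 and 42.2 CPM in Cre- livers in the order of the experiments. In Cre+ livers it was 50.7, 5.21 and 37.1 CPM. The part of the time of collection in any contrast of this report was not tested. In HFCFD8W+T10D *Hlf* was lower (-0.65, adjusted p = 0.00332) and 0 were higher by edgeR, against 1 at an unadjusted p under 0.05 and 1 by DESeq2. In HFCFD12W+T10W *Atf3*, a stress-induced repressor, was higher (2.09, adjusted p = 0.00101), and *Nfil3* (-1.53, adjusted p = 0.0011), *Hlf* (-0.74, adjusted p = 1.78e-05) and *Tef* (-0.54, adjusted p = 0.000269) were lower. Without scaling *Tef* was -0.17 there and missed the threshold. *Atf3* had 0.475 to 4.34 CPM in Cre- and 5.49 to 10.6 CPM in Cre+ livers there, without overlap. The medians of this list were -0.03, 0.01 and -0.14.

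Among inducers of *Cebpb* and *Cebpd*, the interleukin-6 receptor gene *Il6ra* was higher in Cre+ livers of HFCFD2W (0.92, adjusted p = 0.00458) and lower in those of HFCFD12W+T10W (-1.09, adjusted p = 2.29e-05), and *Il6st*, its signalling subunit, was higher in HFCFD2W (0.23, adjusted p = 0.0449). The glucocorticoid receptor gene *Nr3c1* was lower in HFCFD8W+T10D (-0.39, adjusted p = 0.013) and HFCFD12W+T10W (-0.39, adjusted p = 0.00168), and *Stat3* was lower in the latter (-0.25, adjusted p = 0.0361). *Il6* itself did not pass the low-count filter, so 7 of 8 were tested, with medians of 0.15, -0.09 and -0.14. Without scaling, 3 genes of this list passed as higher and 1 as lower in HFCFD12W+T10W, *Stat3* turned to 0.12, and *Nr3c1* missed the threshold in both inducible experiments (-0.20 and -0.017). *Il6st* in HFCFD2W missed it without scaling and under upper quartile scaling (0.25 and 0.22).

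Regulators of *Cebpa*, among them the hepatocyte factors and *Atf3*, gave 0 calls of 6 tested in HFCFD2W by edgeR, against 1 as lower at an unadjusted p under 0.05 and 1 as lower by DESeq2. *Atf3* did not pass the low-count filter in HFCFD2W and was not tested there. Of 7 tested, 3 were lower in HFCFD8W+T10D, among them *Onecut1* (-1.31, adjusted p = 0.0451) and *Hnf4a* (-0.56, adjusted p = 0.0104). In HFCFD12W+T10W 1 was higher, *Atf3* (2.09, adjusted p = 0.00101), and 4 were lower, among them *Hnf4a* (-0.96, adjusted p = 2.21e-06), *Foxa2* (-0.55, adjusted p = 0.0264) and *Foxa1* (-0.51, adjusted p = 0.00801). Without scaling, 0 were lower in the former experiment, and 2 were higher and 2 lower in the latter, where *Foxa1* (-0.14) and *Foxa2* (-0.18) missed the threshold. *Onecut1* and *Foxa2* also missed it under upper quartile scaling (-1.28 and -0.47). The medians were 0.07, -0.56 and -0.55.

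Among hepatic genes known as C/EBP targets, of 12 tested in HFCFD2W 3 were higher, the gluconeogenic gene *Pck1* (1.35, adjusted p = 0.00039), the tyrosine-degrading *Tat* (1.52, adjusted p = 0.00032) and the alcohol dehydrogenase *Adh1* (0.38, adjusted p = 0.0144), and *Hamp*, the iron hormone hepcidin, was lower (-0.73, adjusted p = 0.0272). In HFCFD8W+T10D 3 were lower, the urea-cycle gene *Cps1* (-1.37, adjusted p = 0.000156), the glucose-6-phosphatase gene *G6pc* (-1.11, adjusted p = 0.00369) and *Alb* (-0.94, adjusted p = 0.0344). In HFCFD12W+T10W 8 were lower, among them *Cps1* (-1.39), *G6pc* (-1.24), *Alb* (-1.10) and the glycogen synthase gene *Gys2*, with adjusted p of 5.98e-06, 7.71e-05, 8.9e-06 and 2.43e-05. Without scaling, 7 of the list were lower and 2 higher there, and *Pck1* was -0.18 and missed the threshold. *Pck1*, *Tat* and *Adh1*, higher in HFCFD2W, were lower in HFCFD12W+T10W (-0.55, -0.93 and -0.88), and whether these effects differ was not tested. The list medians were 0.00, -0.39 and -0.77.

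**Figure D4:**
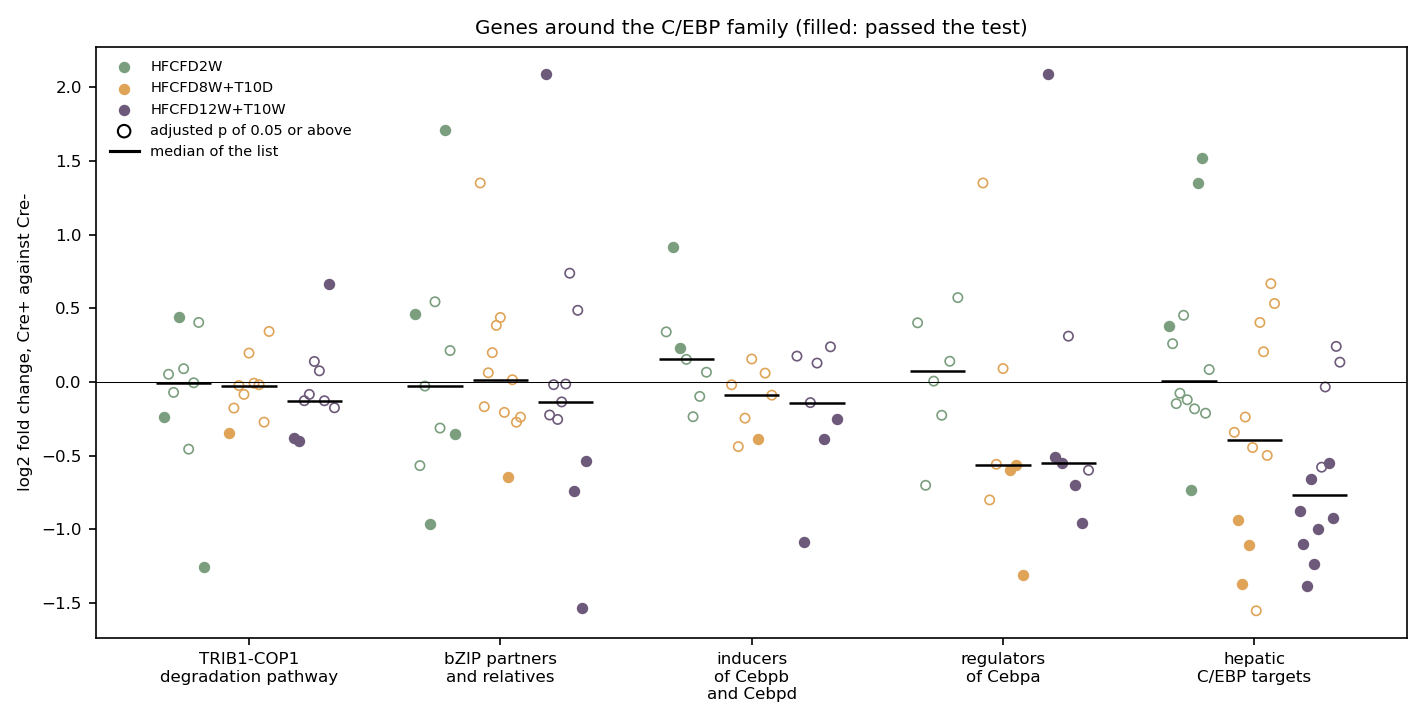
Log2 fold change of Cre+ against Cre- (y axis) for each tested gene of the 5 lists (x axis) in the 3 experiments, with filled circles for an adjusted p under 0.05, open circles for the rest and a line at the median of the list. The median of the C/EBP targets lies at 0.00 in HFCFD2W and at -0.77 in HFCFD12W+T10W, while that of the TRIB1-COP1 list lies between -0.01 and -0.13.

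Markers of several other liver cell types passed in the inducible experiments, and of those tested in HFCFD2W only macrophage markers did. The shares of all genes that passed are those given above for the lists. In HFCFD2W 0 of 7 stellate markers passed, with sums of 115 to 221 CPM in Cre- and 119 to 233 CPM in Cre+ livers. The 1 cholangiocyte marker that could be tested there did not pass. The summed level of 7 stellate cell markers was 244 to 307 CPM in Cre- and 954 to 1174 CPM in Cre+ livers of HFCFD12W+T10W, where 7 of 7 passed as higher, and that of 5 cholangiocyte markers was 3.22 to 5.17 and 34.8 to 61.3 CPM, where 5 of 5 did. In HFCFD8W+T10D 2 of 7 stellate and 2 of 4 cholangiocyte markers tested were higher, with stellate sums of 274 to 497 CPM in Cre- and 455 to 894 CPM in Cre+ livers. The sum of 8 macrophage markers was 234 to 713 CPM in Cre- and 693 to 798 CPM in Cre+ livers of HFCFD12W+T10W, with 5 higher and 2 (*Timd4* and *Marco*) lower, and in HFCFD8W+T10D it was 456 to 781 and 724 to 1456 CPM, with 5 of 8 higher. In HFCFD2W 3 of the 8 were higher, at 141 to 181 and 164 to 273 CPM. Of 9 neutrophil markers 2 could be tested in the inducible experiments, and both were higher in HFCFD12W+T10W. The neutrophil sum was 0.568 to 1.52 CPM in Cre- and 2.28 to 3.11 CPM in Cre+ livers of HFCFD2W, 1.32 to 31.4 and 4.44 to 14.1 CPM in HFCFD8W+T10D, and 2.27 to 7.35 and 11.8 to 94.8 CPM in HFCFD12W+T10W. *Ly6g* was at 0 in both groups of HFCFD2W and in Cre- livers of HFCFD8W+T10D. Markers of endothelial cells gave 0, 1 and 2 lower of 5, and of 5 lymphocyte markers *Cd79a* could be tested in HFCFD8W+T10D (0.45, adjusted p = 0.655) and *Nkg7* in HFCFD12W+T10W, where it was higher (1.91, adjusted p = 0.00339). Of the 6 hepatocyte markers 0, 1 and 2 passed as lower in the order of the experiments, and at an unadjusted p under 0.05 none was lower in HFCFD2W. These markers, all present in every group, summed to 87436 to 109570 CPM in Cre- and 47816 to 56639 CPM in Cre+ livers of HFCFD12W+T10W. *Alb*, which is also a C/EBP target, made up most of this difference, with means of 77545 and 35080 CPM, and the other 5 markers summed to 17663 to 20728 CPM in Cre- and 16313 to 18549 CPM in Cre+ livers. Of these 5, only *Fgb* passed there, as lower (-0.61, adjusted p = 0.000403). In HFCFD2W the sum of all 6 was 102980 to 131830 CPM in Cre- and 108176 to 156593 CPM in Cre+ livers, and in HFCFD8W+T10D it was 104852 to 128780 and 54608 to 108722 CPM. *Cebpb* and *Cebpd* are also expressed by myeloid cells, and the part of any cell type in the changes of the 5 genes was not tested.

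The genes whose level followed each member most closely over the 30 livers were named among 12103 genes with a mean of at least 1 CPM, by Pearson's r of log2 CPM, as a description with no test, since the livers share experiments and genotypes. For *Cebpa* they were *Cldn14* (r = 0.90), *Tiam2* (0.90) and *D16Ertd472e* (0.89). For *Cebpb* they were *Tsc22d3* (0.90), a glucocorticoid-induced gene, *Ell2* (0.87) and *Pfkfb3* (0.84). For *Trib1* they were *Etnk2* (0.92), *Pla2g12a* (0.91) and *Fam107b* (0.85). For *Cebpg* they were *Rabep1* (0.86), *Ifi27l2b* (0.80) and *Cdc42ep5* (0.79), and for *Cebpd* they were *Thbd* (0.85), *Ubxn2b* (0.79) and *Tbx2* (0.79). After the mean of each group was subtracted, which leaves the variation among livers of 1 group, the closest were *Lrat* (0.70), *Chmp4c* (0.69) and *Cbfb* (0.69) for *Cebpa* and *Il6ra* (0.79), *Irf2bp2* (0.75) and *Ip6k2* (0.73) for *Cebpb*. They were *Maff* (0.75), *Atl2* (0.69) and *Mknk2* (0.69) for *Trib1*, *Gzf1* (0.81), *BC025446* (0.76) and *Dennd4a* (0.76) for *Cebpg*, and *Coprs* (0.77), *Thbd* (0.69) and *Kdelc1* (0.69) for *Cebpd*. *Thbd* is the 1 gene named in both ways for the same member.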

How the data were processed

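Livers of 30 mice were sequenced as stranded poly(A) libraries. The authors deposited gene-level expected counts made with RSEM 1.2.22, without normalization, from mm10 alignments, and TPM and effective lengths per library. Per the labels, the submitters' processing notes also name Trimmomatic 0.36, STAR 2.5.1, Picard 1.84 and DESeq2. A deposited signal table of 15010 genes, in which the authors divided counts by 1 factor per library, served an alternative only, and RPKM values were not used. The strand setting of the counting is not given in the sources used here.

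Expected counts were rounded to whole numbers, although 0 of the 150 values of the 5 genes needed it. Low-count genes were removed with filterByExpr, libraries were scaled by TMM, and genotypes were compared within each experiment with the quasi-likelihood test of edgeR 4.0.16 (R 4.3.3), adjusted by Benjamini-Hochberg over all genes. Differences between experiments were contrasts in 1 fit of 30 livers. Log2 CPM used a prior count of 2. The scripts were tested on simulated data. The permutation test used scipy 1.17.1. The labels call the samples biological replicates.

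The alternatives were upper quartile scaling, DESeq2 1.42.0, the fit without the low-count filter, the fit on the authors' 15010 genes only, the fit of 30 livers, robust fitting, limma 3.58.1 on the authors' values with a pseudocount of 1, the replicate number as a block, a prior count of 0.5 and each liver left out. Library totals without a scaling factor were added after seeing the data. The members, lists and tests were chosen with earlier results of these data known. Genes named were the 5 members, up to 4 genes per list and experiment that passed, by size, and the 3 most alike genes per member. Of the markers, *Timd4*, *Marco*, *Ly6g*, *Cd79a*, *Nkg7*, *Alb* and *Fgb* were named after their values were seen. So were *Pck1*, *Tat* and *Adh1* in HFCFD12W+T10W, *Foxa1*, and the overlapping genes *Tmem189*, *Spidr* and *Gm45091*. The values of 1 gene of the lists are not reported here.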

Additional observations from a re-analysis of the deposited data

Results flagged for a closer look

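Of 30 groups of 5 livers, 2 held a liver that stood apart by Dixon's test on CPM, which marks about 1 group in 20 by chance. *Cebpg* had 109 CPM in Cre+ replicate 5 of HFCFD8W+T10D, against 72.2 CPM in the next liver. *Trib1* had 11.9 CPM in Cre+ replicate 3 of HFCFD2W, against 18.8 CPM in the next.

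The genotype effect differed between experiments by the interaction test for 3 genes, among them *Cebpa*, the gene removed. For *Cebpa* it was weaker by 2.17 log2 units in HFCFD8W+T10D and by 2.80 in HFCFD12W+T10W than in HFCFD2W. For *Cebpb* it differed from HFCFD2W by -1.05 in HFCFD8W+T10D and -1.59 in HFCFD12W+T10W. For *Cebpg* it differed between HFCFD12W+T10W and HFCFD2W by -0.61, which was not past the threshold under upper quartile scaling or without scaling. Of 12964 genes, 4.45% passed as higher and 6.79% as lower for HFCFD8W+T10D minus HFCFD2W. For HFCFD12W+T10W minus HFCFD2W these shares were 13.4% and 17.3%.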

How the results depend on the processing

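Of the 15 genotype effects of the 5 genes, 11 passed the test, among them those of *Cebpa*, the gene removed, which were set by the design. Shares of all genes that passed were 8.6% higher and 8.09% lower in HFCFD2W, and 10.3% and 6.85% in HFCFD8W+T10D. In HFCFD12W+T10W they were 27.4% and 23.8%. All 11 kept their direction under every alternative, and those of *Cebpa* and *Trib1* in all 3 experiments and of *Cebpb* and *Cebpg* in HFCFD2W passed under every one. The others were lost as follows, and the cause was not tested. In HFCFD12W+T10W, *Cebpb* was -0.062 without scaling, and in the fit of 30 livers *Cebpg* was 0.27 and *Cebpd* 0.55. With 1 liver left out, *Cebpd* there ranged from 0.49 to 0.75, and *Cebpb* in HFCFD8W+T10D, which did not pass, from -0.041 to 0.20. A prior count of 0.5 changed no call of the permutation test.

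For differences of genotype effects, upper quartile scaling gave 0.71 for *Cebpa* (HFCFD12W+T10W minus HFCFD8W+T10D), now passed, -0.49 for *Cebpg* (HFCFD12W+T10W minus HFCFD2W), no longer passed, and the opposite sign for *Trib1* (HFCFD8W+T10D minus HFCFD2W, 0.047) and *Cebpg* (HFCFD12W+T10W minus HFCFD8W+T10D, 0.0061). Without scaling these 4 were 0.84, -0.22, 0.16 and 0.13, and *Trib1* (0.13) and *Cebpd* (0.22) for HFCFD12W+T10W minus HFCFD2W changed sign. DESeq2 gave 0.65 for *Cebpa* and 0.010 for *Trib1* in the contrasts named first. Leaving out 1 liver gave 0.52 to 0.83 for *Cebpa* and -0.15 to 0.11 for *Cebpg* (HFCFD12W+T10W minus HFCFD8W+T10D), -0.73 to -0.45 for *Cebpg* and -0.13 to 0.13 for *Trib1* (HFCFD8W+T10D minus HFCFD2W), and for *Cebpd* -0.57 to 0.070 (HFCFD12W+T10W minus HFCFD2W) and -0.00063 to 0.32 (HFCFD12W+T10W minus HFCFD8W+T10D).

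Within a genotype, upper quartile scaling gave, in Cre+ livers, 0.34 and 0.12 for *Cebpg* in HFCFD8W+T10D and HFCFD12W+T10W against HFCFD2W and 0.40 for *Cebpb* in HFCFD12W+T10W against HFCFD8W+T10D. Without scaling these were 0.61, 0.59 and 0.62. Without scaling, Cre+ livers also gave 0.020 for *Trib1* and 0.15 for *Cebpd* (HFCFD8W+T10D minus HFCFD2W), 0.54 for *Cebpa* (HFCFD12W+T10W minus HFCFD8W+T10D), and 0.83 for *Trib1* and 0.028 for *Cebpb* (HFCFD12W+T10W minus HFCFD2W), and Cre- livers gave -0.40 for *Cebpa* in the last contrast. DESeq2 gave 0.014 for *Cebpg* in Cre+ livers (HFCFD12W+T10W minus HFCFD2W) and 0.84 for *Cebpd* in Cre- livers (HFCFD12W+T10W minus HFCFD8W+T10D). With 1 liver left out, *Trib1* ranged from 0.39 to 0.67 (Cre+, HFCFD12W+T10W minus HFCFD8W+T10D), 0.40 to 0.58 (Cre-, HFCFD12W+T10W minus HFCFD2W) and -0.46 to -0.16 (Cre+, HFCFD8W+T10D minus HFCFD2W), and *Cebpa* from 0.18 to 0.50 (Cre+, HFCFD12W+T10W minus HFCFD8W+T10D). *Cebpd* ranged from -0.18 to 0.46, 0.67 to 0.98 and 0.66 to 1.30 in Cre- livers for HFCFD8W+T10D minus HFCFD2W, HFCFD12W+T10W minus HFCFD8W+T10D and HFCFD12W+T10W minus HFCFD2W. *Cebpb* ranged from -0.018 to 0.22 (Cre-, HFCFD8W+T10D minus HFCFD2W) and *Cebpg* from -0.068 to 0.055 (Cre+, HFCFD12W+T10W minus HFCFD2W).

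Counts of list genes moved by over 1.5 times as follows. Upper quartile scaling gave, in HFCFD12W+T10W, 2 higher genes of the TRIB1-COP1 list, the inducers and the regulators and 1 of the targets, and 1 higher inducer in HFCFD2W. Without scaling HFCFD12W+T10W had 5 higher and 0 lower genes of the TRIB1-COP1 list, 3 and 1 of the inducers, 2 and 2 of the regulators, 2 higher partners and 2 higher targets. HFCFD8W+T10D had 1 higher and 0 lower of the TRIB1-COP1 list, 2 higher targets, and 0 lower inducers and regulators, and HFCFD2W had 1 lower of the TRIB1-COP1 list and 1 higher inducer. DESeq2 gave 1 lower gene of the TRIB1-COP1 list and 1 lower regulator in HFCFD2W, 1 higher target in HFCFD12W+T10W, and 1 higher partner, 1 higher target, 1 higher regulator and 3 lower inducers in HFCFD8W+T10D.

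The replicate numbers were treated as names and not as pairs. Livers of the same number correlated by -0.25 to 0.18 in their deviations from the group means. Livers of different numbers were not compared in this way, so these values cannot exclude a pairing. With the replicate number as a block, for example, *Trib1* was -0.80 in HFCFD2W and *Cebpb* -0.42 in HFCFD12W+T10W. The block changed no call of a genotype effect or of a difference between effects. In HFCFD2W, Cre- replicate 1 and Cre+ replicate 6 have no partner of the same number, so they add nothing to the blocked genotype effect there. The depth limits *Cebpd* most, with as few as 3 counts in a library.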
